A study of Mus musculus with 16 samples.

Results

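A set of 9 genes for the presentation of peptides on MHC class II molecules was followed through a course of skin irritation in mice: H2-Aa, H2-Ab1, H2-Eb1, Cd74, H2-DMa, H2-DMb1, H2-Oa, Ctss and Ciita. They were picked by symbol, as genes of this pathway, with earlier results of these data known, and all 9 were found among the 32078 genes of the deposited table and passed the filter on low values. Whole skin of 7-week-old mice had been treated topically with SDS, sodium dodecyl sulfate, a detergent that irritates skin, and sampled at days 0, 1, 3 and 5, with or without Topsym, which is sold as a skin preparation of the glucocorticoid fluocinonide. With 2 libraries each, 8 groups make up the 16 libraries. Every group carries SDS in its title, so no group at days 1, 3 or 5 is free of SDS, and change from day 0 cannot be told apart from change with time or with the skin sampled. Treatment is given as lasting 4 days although titles run to day 5, and the sources used here give neither the strain, nor the hour of each application, nor the treatment behind day 0 with Topsym. Separate animals are not stated for the 2 libraries of any group, and p-values then reflect library spread, which may be technical.

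MHC class II molecules are pairs of an alpha and a beta chain that carry peptides from the endosomes of a cell to its surface, where CD4+ T cells read them. The invariant chain, Cd74, occupies the groove until cathepsin S cuts it down, and H2-DM then exchanges its last fragment for a peptide while H2-O restrains H2-DM. In skin these molecules are carried by Langerhans cells of the epidermis, dermal dendritic cells and part of the macrophages, and the transactivator Ciita is the master switch of their genes. Fewer cells of a type and less RNA per cell cannot be told apart in whole skin.

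Class II promoters share an arrangement of short boxes, in which RFX binds the X box and NFY binds the Y box downstream of it, and Ciita docks on the proteins assembled there. The 4 stretches printed here are those in which these letters were found. They are given because H2-Aa, H2-Eb1 and H2-DMb1 had a like course in the libraries, which H2-Oa, on few reads, shared less and H2-DMa, with no such pair in its windows, shared as well. Promoter windows of 300 bases, from 250 before to 50 after the start, were taken from RefSeq for GRCm38.p6, which held an entry for 6 of the 9 genes. Capitals mark the letters GNAAC, a loose core of the X box chosen after the sequences had been seen, and GATTGG, the Y box core. Each line reads 5′ to 3′ in the direction of the gene.
H2-Aa: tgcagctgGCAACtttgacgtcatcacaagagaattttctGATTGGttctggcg
H2-Eb1: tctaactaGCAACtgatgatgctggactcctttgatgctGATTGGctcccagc
H2-DMb1: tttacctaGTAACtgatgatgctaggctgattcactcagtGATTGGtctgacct
H2-Oa: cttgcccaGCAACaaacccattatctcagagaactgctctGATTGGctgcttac
The H2-Aa stretch lies at chr17:34287859-34287912 on the minus strand, and that of H2-Eb1 at chr17:34305768-34305820 on the plus strand. The H2-DMb1 stretch lies at chr17:34153089-34153142 on the plus strand, and that of H2-Oa at chr17:34092295-34092348 on the plus strand. From the first base of GNAAC to the first base of GATTGG the distance was 32 bases in H2-Aa, H2-DMb1 and H2-Oa and 31 in H2-Eb1. GATTGG began 44 to 62 bases before the RefSeq start used for these windows. The gene spans given below come from another annotation, GENCODE M21, and can begin elsewhere. The H2-DMb1 stretch lies inside its span, which begins at 34153072. That of H2-Oa crosses the first base of its span, 34092340. A GNAAC with a GATTGG 25 to 35 bases downstream on the same strand was found in 0.651% of all 32851 windows. Either strand of a window could hold the pair for this share, while the 4 stretches were sought in the direction of the gene. The range of 25 to 35 bases, like GNAAC, was not planned beforehand, so this share cannot test how rare the 4 stretches are. The longer X box letters CCNAGNNAC followed within 60 bases by GATTGG were found in H2-DMb1 and H2-Oa, in the direction of the gene. Over all windows the share was 0.390%, again with either strand counted. On either strand, CCNAGNNAC alone was in 17.3% of windows, GATTGG in 16.1% and GNAAC in 84.8%, and GNAAC is contained in some matches of CCNAGNNAC. Neither pair was found in the window of Ctss or in the 2 windows of H2-DMa. Those of H2-DMa, chr17:34122582-34122881 and chr17:34125268-34125567, lie inside its gene span and do not include the first base of that span, 34119541. Bases before that first base were not searched, so the absence holds for these 2 windows only. A match shows the letters only and is no measure of binding.

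Libraries held 15199656 to 32066246 reads. The 4 libraries of day 5 stood apart from the rest, with 19885 to 20774 genes detected against 22875 to 23740 at the other days, and with 10.3 to 14.8% of reads in the 10 highest genes against 4.91 to 7.06%. The day 0 group with Topsym also differed from day 0 without it: the summed level of 12 macrophage markers was 59314 to 59437 normalised reads against 24857 to 25110, that of 5 red blood cell genes 9701 to 11019 against 2401 to 3070, and that of 5 skeletal muscle genes 117313 to 118798 against 317882 to 319720. The tissue itself shifted: the 10 skin markers, keratins among them, summed in SDS alone to 761712 to 814100 normalised reads at day 0, 359846 to 376130 at day 3 and 1674480 to 1784790 at day 5. With Topsym they summed to 898768 to 925517, 728878 to 746088 and 2576230 to 2635020. These sums follow the most abundant genes. By the calls defined below, 5 of the 10 were higher and 5 lower at day 5 against day 0 in each arm. Their median log2 differences were -1.72 in SDS alone and -0.49 with Topsym. Of all genes, 30.7% were higher and 35.8% lower in SDS alone, and 32.8% and 37.5% with Topsym. The muscle genes stood at 313076 to 317340 at day 3 and 58989.6 to 62550.2 at day 5 of SDS alone, and at 147831 to 151986 and 99587.8 to 102016 with Topsym. The part of these shifts in the falls of the members was not tested. B cells also carry class II, and their 7 markers summed to 137 to 159 normalised reads at day 0 in both arms and 26.2 to 82.7 later. Among them Ms4a1 stood at 0 to 3.89 normalised reads over the libraries. Values below are normalised reads, read counts divided by a size factor per library. Differences are of log2(normalised reads + 1), fitted with limma over all 19189 genes tested, and a gene is called higher or lower when its adjusted p is under 0.05.

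At day 0 of SDS alone the members spanned a wide range of levels. Per kilobase of exon, Cd74 was highest at 27092 normalised reads, followed by H2-Ab1 at 7638, H2-Eb1 at 7410, H2-Aa at 3799, Ctss at 2259, H2-DMb1 at 1001, H2-DMa at 559, Ciita at 51.2 and H2-Oa at 12.2. H2-Ab1 and H2-Eb1 overlapped between libraries on this scale, and no other neighbours in the order did. H2-Eb1 had almost no partner RNA: H2-Ea, which encodes the alpha chain of H2-E and is defective in several laboratory strains, had 2 reads in a single library and 0 in all others. H2-Ea was named after its values were seen.

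The chains of the class II molecule fell steeply in both arms, and lower with Topsym from day 1 on. H2-Aa, the alpha chain of H2-A (chromosome 17, 34282744 to 34287823, minus strand, GRCm38), stood in the libraries of SDS alone at 13806 and 15049.8 at day 0, 12994 and 12487 at day 1, 3723 and 3478 at day 3 and 1307 and 1437 at day 5. With Topsym it stood at 12611 and 13757 at day 0, 7704 and 7711 at day 1, 1059 and 1047 at day 3 and 466 and 366 at day 5. All libraries of days 3 and 5 lay below all libraries of days 0 and 1 in each arm, and the arms did not overlap at days 1, 3 and 5. Against day 0, the difference at day 3 was -2.002 (SE 0.086, adjusted p = 8.16e-12) for SDS alone and -3.64 (SE 0.086, adjusted p = 3.14e-15) with Topsym. At day 5 SDS alone held 9.51% of its day 0 mean, and Topsym 3.15%.

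H2-Ab1, the beta chain that pairs with H2-Aa (chromosome 17, 34257689 to 34269419, plus strand), gave 19353 and 19878 at day 0, 15695 and 15164 at day 1, 4212 and 4157 at day 3 and 1931 and 1971 at day 5 with SDS alone. In the Topsym libraries it gave 17525 and 18651 at day 0, 8794 and 8884 at day 1, 1018 and 1146 at day 3 and 591 and 567 at day 5. At day 3 its difference from day 0 was -4.06 (SE 0.054, adjusted p = 2.70e-18) with Topsym and -2.23 (SE 0.054, adjusted p = 5.68e-15) with SDS alone. H2-Eb1, the beta chain of H2-E (chromosome 17, 34305867 to 34316674, plus strand), followed with 14081 and 14729 at day 0, 12608 and 12260.4 at day 1, 3584 and 3557 at day 3 and 1403 and 1403 at day 5 for SDS alone. Under Topsym its values were 13325 and 14240.2 at day 0, 7561 and 7404 at day 1, 949 and 934 at day 3 and 381 and 419 at day 5. H2-Ab1 groups did not overlap at all, and for H2-Eb1 only the day 0 groups of the 2 arms did. H2-Eb1 held 24.8% of its day 0 mean at day 3 of SDS alone and 6.83% with Topsym.

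Cd74, the invariant chain, is encoded apart from the class II region (chromosome 18, 60803848 to 60812652, plus strand), and had the highest level per kilobase of the members at day 0. SDS alone gave 44533 and 46443 at day 0, 42839 and 38886 at day 1, 11063 and 10784 at day 3 and 4547 and 4400.2 at day 5. Topsym gave 39870.3 and 42344 at day 0, 26132 and 25797 at day 1, 3027 and 3149 at day 3 and 1287 and 1363 at day 5. It traced the same course as the chains it escorts: the day 3 difference was -2.06 (SE 0.051, adjusted p = 7.00e-15) for SDS alone and -3.73 (SE 0.051, adjusted p = 2.86e-18) with Topsym. Between the day 0 groups Cd74 differed by -0.15 (SE 0.051, adjusted p = 0.05004), just outside the threshold. It came inside with edgeR (adjusted p = 0.0360), DESeq2 (0.0136) and other alternatives.

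**Figure D1:**
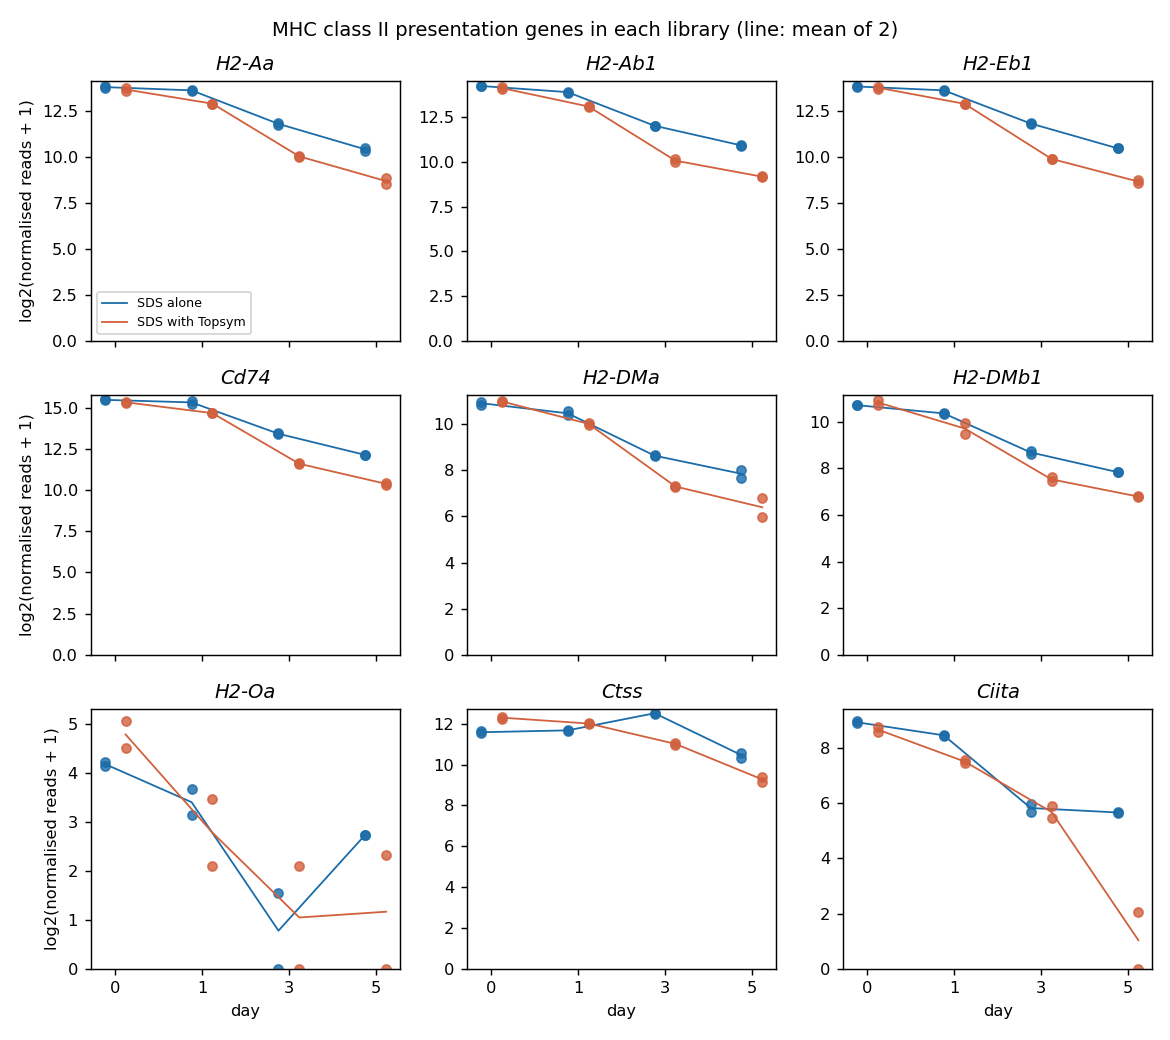
Level of each of the 9 genes in each library, as log2(normalised reads + 1) on the vertical axis against day, with SDS alone in blue and SDS with Topsym in orange (points are the 2 libraries of a group, lines join their means). The class II chains, Cd74 and the H2-DM genes descend in both arms and lie lower with Topsym from day 1, while Ctss rises to its highest mean, 5848 normalised reads, at day 3 of SDS alone.

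H2-DM, the peptide editor, is a pair of H2-DMa and a beta chain. H2-DMa (chromosome 17, 34119541 to 34139101, plus strand) read 1842 and 2014 at day 0, 1506 and 1336 at day 1, 405 and 389 at day 3 and 203 and 259 at day 5 in SDS alone. Its Topsym libraries read 2063 and 1999 at day 0, 995 and 1072 at day 1, 154 and 159 at day 3 and 111 and 62.3 at day 5. H2-DMa held 20.6% of its day 0 mean at day 3 of SDS alone, -2.28 (SE 0.18, adjusted p = 2.03e-08), and 7.70% with Topsym, -3.69 (SE 0.18, adjusted p = 3.61e-11). H2-DMb1 (chromosome 17, 34153072 to 34160230, plus strand) read 1671 and 1695 at day 0, 1329.6 and 1304 at day 1, 432 and 392 at day 3 and 229 and 228 at day 5 in SDS alone. With Topsym the pairs were 1699 and 1967 at day 0, 721 and 977 at day 1, 195 and 174 at day 3 and 111 and 109 at day 5. At day 3 it held 24.5% of day 0 in SDS alone and 10.1% with Topsym, with differences of -2.03 (SE 0.12, adjusted p = 5.61e-10) and -3.31 (SE 0.12, adjusted p = 8.68e-13). The near copy H2-DMb2 stood at 0.109 to 0.282 of H2-DMb1 over the libraries, and reads may be shared between the 2 genes.

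H2-Oa, the alpha chain of the H2-DM inhibitor H2-O (chromosome 17, 34092340 to 34095234, plus strand), rested on few reads. SDS alone gave 16.7 and 17.6 at day 0, 7.77 and 11.8 at day 1, 0 and 1.94 at day 3 and 5.69 and 5.67 at day 5. Topsym gave 32.2 and 21.9 at day 0, 3.27 and 10.1 at day 1, 3.27 and 0 at day 3 and 4.03 and 0 at day 5. It was highest in the day 0 libraries of both arms, and later groups overlapped in part. At day 3 of SDS alone only 2 reads remained in the 2 libraries, a ratio to day 0 of 0.0521 with a 95% counting interval of 0.00611 to 0.201. The call at day 3 of SDS alone, -3.41 (SE 0.88, adjusted p = 0.00392), was lost without day 3 replicate 1, the library at 0, where the difference was -2.63 with an adjusted p of 0.0571. Its call from day 1 to day 3 was lost without day 1 replicate 1, day 1 replicate 2 or day 3 replicate 1, with adjusted p-values of 0.0573 to 0.201. H2-Oa was also called at day 3 with Topsym, -3.74 (SE 0.88, adjusted p = 0.00164), where 4 reads remained. Counts from 1 to 20 were even in 69.9 to 76.8% of cases, and an interval that takes each read as separate is too narrow where mates were counted apart.

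Ciita, the transactivator (chromosome 16, 10480059 to 10528418, plus strand), fell in both arms from a low level. SDS alone gave 498 and 478 at day 0, 346 and 357 at day 1, 50.8 and 61.2 at day 3 and 49.8 and 49.6 at day 5. Topsym gave 378 and 436 at day 0, 189.8 and 173 at day 1, 58.1 and 43.6 at day 3 and 0 and 3.20 at day 5. By day 3 both arms had come to a like level and overlapped, 56.0 ± 7.39 and 50.8 ± 10.3 (mean ± SD, n = 2), a difference of -0.15 (SE 0.43, adjusted p = 0.826). The arms parted at day 5, where SDS alone stood near its day 3 level and Topsym had 2 reads in 1 library and none in the other. That is a ratio of 0.0359 to SDS alone, with a 95% counting interval of 0.00426 to 0.135, and of 0.00435 to day 0 with Topsym, with an interval of 0.000525 to 0.0157. Against their own day 0, the differences at day 3 were -3.11 (SE 0.43, adjusted p = 1.47e-05) in SDS alone and -2.99 (SE 0.43, adjusted p = 1.78e-05) with Topsym.

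Ctss, cathepsin S, which trims the invariant chain (chromosome 3, 95526786 to 95556403, plus strand), did not follow the others. In SDS alone its libraries stood at 3174 and 2961 at day 0, 3243 and 3289.6 at day 1, 5976 and 5719 at day 3 and 1299 and 1529 at day 5. With Topsym they stood at 5185 and 4879.8 at day 0, 4175 and 4065 at day 1, 2126 and 2001 at day 3 and 575 and 663 at day 5. In SDS alone it rose 1.91-fold by day 3, 0.93 (SE 0.077, adjusted p = 3.03e-08), and fell to 46.1% of day 0 by day 5. With Topsym it fell at each step, to 41.0% of its day 0 mean at day 3 and 12.3% at day 5. No neighbouring groups overlapped in the order of its 8 means, from day 3 of SDS alone at the top to day 5 with Topsym at the bottom. It was the only member called between the day 0 groups, 1.64-fold higher with Topsym, a difference of 0.71 (SE 0.077, adjusted p = 3.19e-06), beside the macrophage markers given above, and their part in that result was not tested. Its fall by day 1 with Topsym, -0.29 (SE 0.077, adjusted p = 0.00650), was lost without day 0 Topsym replicate 1 (adjusted p = 0.0605) or day 1 Topsym replicate 2 (0.0513).

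The order of the 8 groups was the same for H2-Aa, H2-Ab1, H2-Eb1 and Cd74: both day 0 groups, day 1 of SDS alone, day 1 with Topsym, day 3 and day 5 of SDS alone, then day 3 and day 5 with Topsym. For H2-DMa and H2-DMb1 only the 2 day 0 groups changed places. Some neighbours at the top did not separate: day 0 with Topsym and day 1 of SDS alone overlapped for H2-Aa and Cd74, and the 2 day 0 groups for H2-Eb1 and H2-DMa. From its highest to its lowest group mean, H2-Aa varied 34.7-fold, H2-Ab1 33.9-fold, H2-Eb1 36.0-fold and Cd74 34.3-fold. The span was narrower for H2-DMa (23.4-fold), H2-DMb1 (16.7-fold) and Ctss (9.45-fold).

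Counts over the 9 members were read against all genes tested. In SDS alone, 4 members were lower at day 1 (H2-Ab1, H2-Eb1, Cd74 and H2-DMb1), against 13.5% of all genes lower. By day 3, 8 were lower and 1, Ctss, was higher, against 24.2% and 25.4% of all genes, and at day 5, 8 were lower and none higher, against 35.8% and 30.7%. From day 1 to day 3 again 8 fell and Ctss rose, against 18.6% and 23.6% of all genes, and from day 3 to day 5, 7 fell, against 34.5%. The median log2 difference of the members was -2.06 at day 3 and -3.27 at day 5, beside -0.0054 and -0.09 over all genes. The day 1 count moved with the processing: DESeq2 on the recovered reads and a fit without the day 5 libraries each called 7, TMM scaling and no filter each called 2, and leaving out day 0 replicate 2 or day 1 replicate 2 left 1, H2-Ab1.

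With Topsym, 8 members were lower at day 1 against 20.5% of all genes, and all 9 were lower at day 3 and at day 5, against 28.2% and 37.5% lower and 27% and 32.8% higher. Between day 1 and day 3, 8 fell against 22.9% of all genes, and between day 3 and day 5 another 8 against 35.1%. H2-Oa was outside the threshold in the 3 comparisons with 8. At day 1 all 9 were lower with edgeR, DESeq2, a pseudocount of 4 and a fit without the day 5 libraries. The members' median was -3.69 at day 3 and -4.95 at day 5, beside -0.041 and -0.078 over all genes. At day 1 the call for Ciita, -1.16 with an adjusted p of 0.0426, was lost without any of 12 libraries in turn, with adjusted p-values of 0.0532 to 0.166.

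**Figure D2:**
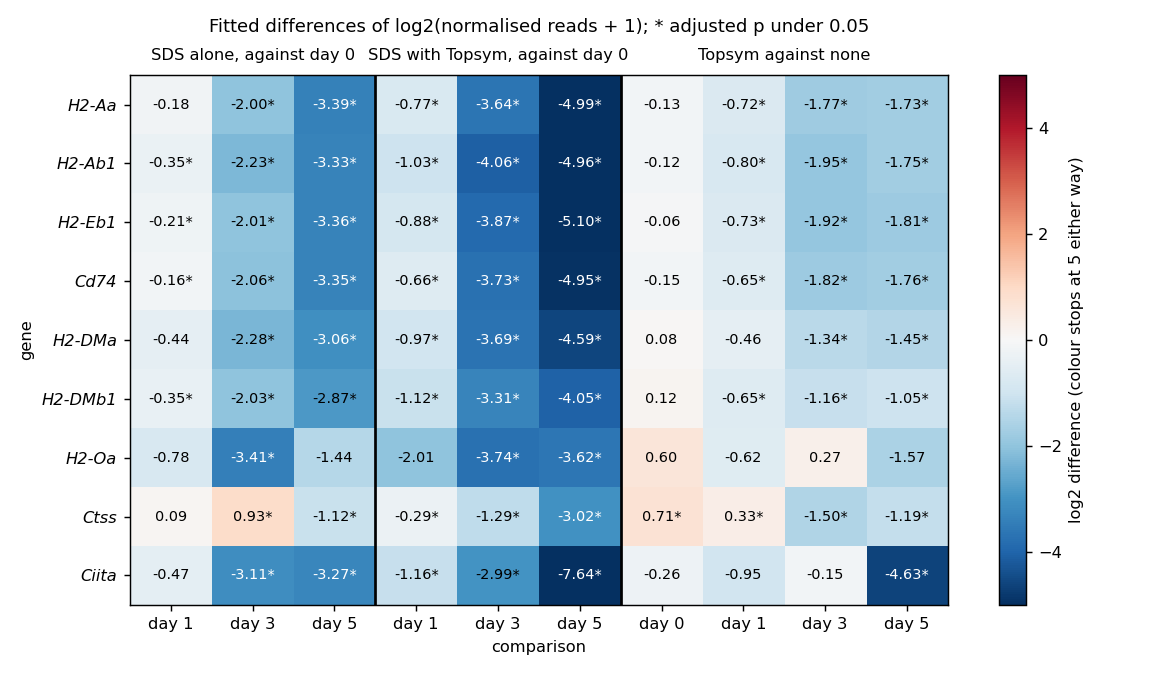
Fitted differences of log2(normalised reads + 1) for the 9 genes (rows) for days 1, 3 and 5 set against day 0 within an arm and for Topsym set against none per day (columns), with blue for lower, red for higher and an asterisk for an adjusted p under 0.05. Differences deepen from day 1 to day 5 in most rows, and Ctss is the only row with called positive values, at day 3 of SDS alone and at days 0 and 1 of Topsym against none; values for H2-Oa and for Ciita at day 5 with Topsym rest on few reads.

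Topsym was set against SDS alone on the same day. At day 0 a single member was higher, Ctss, and none lower, against 10.8% of all genes higher. At day 1, 5 members were lower (H2-Aa, H2-Ab1, H2-Eb1, Cd74 and H2-DMb1) and Ctss was higher, against 4.29% and 5.51% of all genes. H2-DMa, -0.46 (SE 0.18, adjusted p = 0.149), and Ciita, -0.95 (SE 0.43, adjusted p = 0.224), were not called, though for neither did the libraries of the arms overlap. A fit without the day 5 libraries, edgeR and DESeq2 each called 7 lower and 1 higher. In the main fit, day 1 values were -0.72 (SE 0.086, adjusted p = 2.73e-05) for H2-Aa, -0.65 (SE 0.051, adjusted p = 2.65e-07) for Cd74 and 0.33 (SE 0.077, adjusted p = 0.00982) for Ctss. The H2-DMb1 call there was lost without day 1 Topsym replicate 1 (-0.43, adjusted p = 0.0597). The Ctss call there was lost without day 1 replicate 1 of SDS alone (adjusted p = 0.0774) or either day 1 Topsym library (0.0935 and 0.0553). The number called ran from 4 to 8 as single libraries were left out.

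At day 3, 7 of the 9 members were lower with Topsym and none higher, against 22.9% and 20.8% of all genes. The classical chains stood at 0.259 to 0.292 of SDS alone, with differences of -1.95 (SE 0.054, adjusted p = 1.28e-13) for H2-Ab1 and -1.77 (SE 0.086, adjusted p = 6.58e-11) for H2-Aa. H2-DMa differed by -1.34 (SE 0.18, adjusted p = 1.36e-05) and Ctss by -1.50 (SE 0.077, adjusted p = 1.19e-10). H2-Oa and Ciita were not called. At day 5, 8 were lower, against 24.2% of all genes, with -1.73 (SE 0.086, adjusted p = 1.80e-10) for H2-Aa and -1.76 (SE 0.051, adjusted p = 4.64e-13) for Cd74, and H2-Oa alone was not called.

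The change from day 0 was also compared between the arms directly, as an interaction. It was more negative with Topsym for 6 members at day 1, 7 at day 3 and 8 at day 5, against 8.06%, 19.5% and 17.7% of all genes. For H2-Aa the extra change was -1.64 (SE 0.12, adjusted p = 1.53e-08) at day 3, and for Ctss -2.22 (SE 0.11, adjusted p = 1.13e-10). For Ciita the change to day 3 was not called different between the arms, 0.12 (SE 0.61, adjusted p = 0.902), and it was called at day 5, where its value rests on 2 reads. The interaction takes day 0 with Topsym as a baseline, and the comparisons of the same day do not.

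Within a library the proportions of the chains moved far less than their level. Over the 16 libraries H2-Eb1 stood at 0.818 to 1.14 of H2-Aa in normalised reads, H2-Ab1 at 0.961 to 1.55 and Cd74 at 2.76 to 3.72. The mean of H2-Ab1 per H2-Aa shifted with day, at 1.36 at day 0, 1.16 at day 3 and 1.42 at day 5 of SDS alone. Under Topsym it was 1.37, 1.03 and 1.41 at these days. H2-DMa stood at 0.107 to 0.238 and H2-DMb1 at 0.0936 to 0.297 of H2-Aa. Ctss per H2-Aa instead ran from 0.197 to 2.01. Against leukocyte genes, Ctss ran from 0.744 to 1.23 of Laptm5, a lysosomal membrane protein, from 0.557 to 1.08 of the macrophage receptor Csf1r, and from 2.16 to 11.4 of Ptprc, which encodes CD45.

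**Figure D3:**
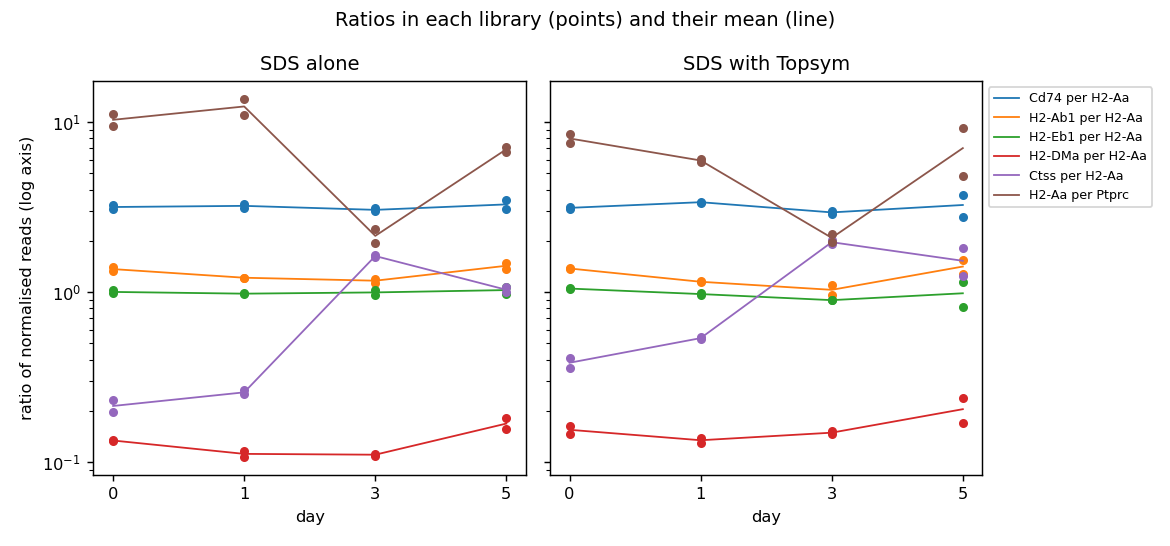
Ratios of normalised reads in each library (points) with the mean of 2 (line), on a logarithmic axis against day, SDS alone at left and SDS with Topsym at right. Ratios among the class II chains shift far less across days than Ctss per H2-Aa, which climbs by day 3 in both arms. H2-Aa per Ptprc dips to 2.14 and 2.08 at day 3.

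Levels of class II RNA were then set beside markers of the cells that could carry it. At day 3, 24.2% of all genes were lower and 25.4% higher in SDS alone, and 28.2% and 27% with Topsym, which are the shares to hold against each list count at day 3. Ptprc, which encodes CD45 of all leukocytes, stood at 1468 and 1349 at day 0 and 1590.0 and 1803 at day 3 of SDS alone, 0.27 (SE 0.14, adjusted p = 0.139). H2-Aa per Ptprc was 10.3 at day 0, 2.14 at day 3 and 6.90 at day 5 in SDS alone. With Topsym it was 7.99, 2.08 and 7.01. At day 3 of SDS alone all 12 macrophage markers and 8 of 8 neutrophil markers were higher, as were 4 of 5 leukocyte markers. The macrophage receptor Csf1r rose by 0.64 (SE 0.064, adjusted p = 2.62e-07), and H2-Aa per Csf1r went from 4.14 to 0.661 there and from 2.32 to 0.319 with Topsym. Ctss rose with these lists in SDS alone. With Topsym at day 3, 9 of 12 macrophage and 5 of 5 leukocyte markers were lower, with Csf1r at -0.78 (SE 0.064, adjusted p = 1.99e-08), beside a lower Ctss. That fall starts from the raised day 0 of Topsym. The 12 macrophage markers summed to 29194 to 29587 normalised reads at day 3 with Topsym, still above the 24857 to 25110 of day 0 of SDS alone. On day 3 itself, Topsym against none had 12 of 12 macrophage and 5 of 5 leukocyte markers lower (medians -0.98 and -2.39). Of all genes 22.9% were lower there. At day 5 against day 0, 11 macrophage markers were lower and 1 higher in each arm. All 5 leukocyte markers were lower at day 5 in each arm, against 35.8% and 37.5% of all genes. The part of these cells in the values of the members was not tested.

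Of the 12 dendritic markers, 5 were lower and 3 higher at day 3 of SDS alone, and 7 lower and 2 higher with Topsym. Of the 6 Langerhans cell markers, 3 were lower and 2 higher in SDS alone, and 2 lower and 2 higher with Topsym. The Langerhans counts with Topsym lie near the shares of all genes. The median log2 difference of the 12 dendritic markers was -0.90 in SDS alone and -1.18 with Topsym. Their sum, which follows the most abundant genes of the list, went the other way. It rose from 6411 to 6562 normalised reads at day 0 to 15892.5 to 16057 at day 3 of SDS alone. With Topsym the sum went from 7002 to 7094.5 to 10446.5 to 10636. The 6 Langerhans cell markers summed to 23298 to 24404 and then 17742 to 18435.5 in SDS alone, and to 20846 to 21882.5 and then 24403 to 24448 with Topsym. The defining genes Cd207, Flt3 and Xcr1 were lower at day 3 in both arms. Cd207, langerin of Langerhans cells, stood at 618 and 643 at day 0, 536 and 484 at day 1, 33.3 and 51.5 at day 3 and 222 and 156 at day 5 in SDS alone. With Topsym it stood at 532 and 513 at day 0, 353 and 341 at day 1, 46.7 and 71.7 at day 3 and 30.3 and 32.0 at day 5. Cd207 in SDS alone was lowest at day 3 and higher again at day 5, while H2-Aa went on falling. H2-Aa per Cd207 was 22.9 at day 0, 111.8 and 67.5 in the 2 libraries of day 3, and 7.55 at day 5. With Topsym that ratio was 25.3, 18.6 and 13.4. Flt3, the growth factor receptor of dendritic cells, differed by -1.52 (SE 0.27, adjusted p = 0.000160) at day 3 of SDS alone and -2.17 (SE 0.27, adjusted p = 2.90e-06) with Topsym. Xcr1, a receptor of cross-presenting dendritic cells, differed by -5.45 (SE 0.76, adjusted p = 1.37e-05) and -5.40 (SE 0.76, adjusted p = 1.21e-05) at 0 to 3.33 normalised reads in the day 3 libraries. Cd3e of T cells, the cells that read class II, differed by -2.58 (SE 0.52, adjusted p = 0.000537) and -3.98 (SE 0.52, adjusted p = 5.30e-06) at day 3, and 10 of 10 and 9 of 10 T cell markers were lower.

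**Figure D4:**
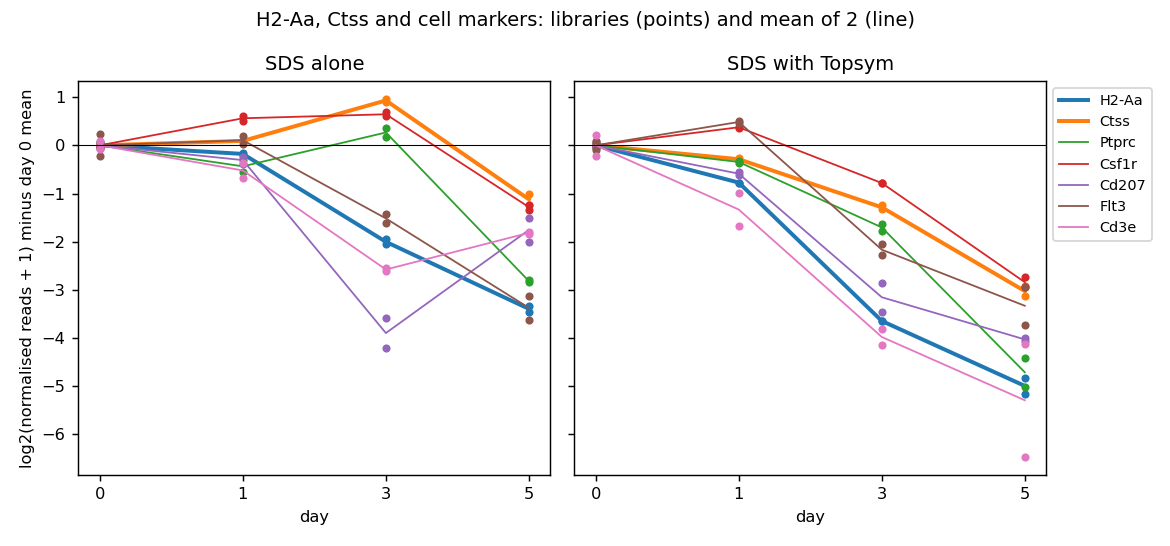
Change of H2-Aa, Ctss and 5 marker genes from the day 0 mean of their arm, as log2(normalised reads + 1) minus that mean, against day, with SDS alone at left and SDS with Topsym at right (points are libraries, lines the mean of 2). In SDS alone Ctss and Csf1r lie above 0 at day 3 while H2-Aa, Flt3, Cd207 and Cd3e lie below, and with Topsym all 7 genes lie below 0 at days 3 and 5.

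Other genes of the pathway gave a mixed picture in SDS alone and were mostly lower with Topsym. Of 15 tested genes for peptide loading, turnover and related steps, H2-DMb2 and H2-Ob among them, 7 were higher and 4 lower at day 3 of SDS alone (median 0.31), and 2 were higher and 11 lower with Topsym (median -1.12). The lysosomal proteases Ctsl and Ctsd rose in both arms, Ctsl by 2.16 in SDS alone and 2.33 with Topsym, and Ctsd by 0.77 and 0.86 (adjusted p at most 5.40e-07). Ctsb rose by 0.93 in SDS alone and fell with Topsym, -0.39 (SE 0.036, adjusted p = 1.02e-07). Cst3, cystatin C, an inhibitor of such proteases, fell in both, -0.57 (SE 0.055, adjusted p = 1.83e-07) and -1.33 (SE 0.055, adjusted p = 3.58e-12).

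Factors that sit on the class II promoter were not set apart from all genes by their counts. Of 11 genes for RFX, NFY, CREB and their partners, 2 were higher and 3 lower at day 3 of SDS alone (median -0.096), against 25.4% and 24.2% of all genes. With Topsym 2 were higher and 2 lower (median -0.024), against 27% and 28.2%. Rfx5, a subunit of RFX named after its values were seen, differed by -0.14 (SE 0.18, adjusted p = 0.554) and -0.20 (SE 0.18, adjusted p = 0.352) in these comparisons. The chromatin remodeller Smarca4, the most abundant of the list, differed by -0.10 (SE 0.053, adjusted p = 0.150) and 0.21 (SE 0.053, adjusted p = 0.00305). Interferon gamma induces Ciita, and of 15 tested genes of its signalling and targets 4 were higher and 3 lower at day 3 of SDS alone, and 1 higher and 11 lower with Topsym (medians 0.48 and -1.33). The receptor chain Ifngr1 rose by 0.48 in SDS alone and fell by 0.27 with Topsym (adjusted p = 7.14e-08 and 4.27e-05). Of 11 costimulation genes, 3 were higher and 3 lower in SDS alone, and none higher and 8 lower with Topsym. Of 7 glucocorticoid target genes, 7 were higher at day 3 of SDS alone, and 4 higher and 2 lower with Topsym. With Topsym against none, 2 were higher and 0 lower at day 1, against 5.51% and 4.29% of all genes. At day 3, 0 were higher and 7 lower (median -0.81), against 20.8% and 22.9%. The part of glucocorticoid action in the values of the members was not tested.

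The genes of MHC class I, which presents peptides to CD8+ T cells, and of its peptide supply fell as well, with smaller medians. All 9 were lower at day 3 in each arm, with medians of -0.68 in SDS alone and -1.44 with Topsym, beside -2.06 and -3.69 for the members. All 9 were already higher with Topsym at day 0 (median 0.34), and against SDS alone at day 3, 5 were lower and 1 higher (median -0.33). B2m, the light chain of class I, differed by -0.73 (SE 0.069, adjusted p = 1.56e-07) and -1.15 (SE 0.069, adjusted p = 3.96e-10), and the heavy chain H2-K1 by -0.61 (SE 0.049, adjusted p = 2.14e-08) and -0.99 (SE 0.049, adjusted p = 3.66e-11).

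Position in the genome was compared through the 249-kb class II region (chromosome 17, 34092340 to 34341412), which holds 9 tested class II genes and 6 other tested genes between them. Of the class II genes, 8 were lower at day 3 in each arm, with medians over the 9 of -2.13 in SDS alone and -3.69 with Topsym. H2-Ob, the partner of H2-Oa, and H2-DMb2 were among them, at -4.01 and -2.13 in SDS alone and -4.82 and -3.28 with Topsym. H2-Eb2, at 11.9 normalised reads at day 0 of SDS alone, was not called in either arm. Of the 6 other genes, the class I peptide supply genes Psmb8, Psmb9, Tap1 and Tap2 were lower in both arms, with log2 differences of -1.33 to -0.57 in SDS alone and -2.50 to -1.44 with Topsym. Brd2, a chromatin reader, was higher in both, 0.53 (adjusted p = 1.48e-08) and 0.26 (adjusted p = 5.81e-05), and Gm15821 was not called. Brd2 lies on the minus strand and ends at 34122634, inside the span of H2-DMa, which begins at 34119541 on the plus strand. The bearing of this overlap on their read counts was not tested. Genes of the region that are no members were named after their values were seen.

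**Figure D5:**
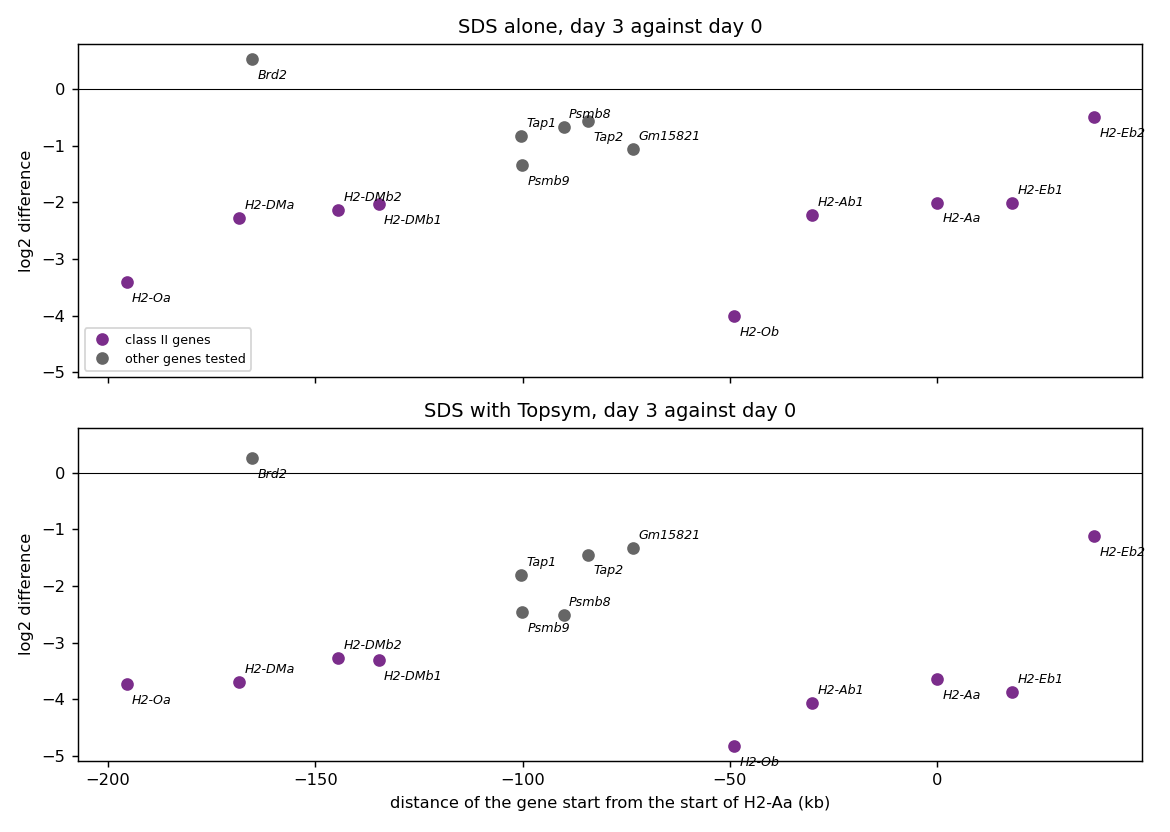
Log2 difference of day 3 against day 0 for the 15 tested genes of the class II region, against the distance of each gene's start from that of H2-Aa in kilobases, SDS alone above and SDS with Topsym below, with class II genes in purple and others in grey. All class II genes but H2-Eb2 lie between -4.01 and -2.002 in SDS alone, the class I peptide supply genes between -1.33 and -0.57, and Brd2 lies above 0 in both arms.

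Beyond the pathway, the genes whose 8 group means were most like the mean of H2-Aa, H2-Ab1, H2-Eb1 and Cd74 were sought among 11791 genes with a mean of at least 100, by Pearson's r of log2(normalised reads + 1). The highest were Itgb5 (0.999), H2-DMb2 (0.997), Osr2 (0.993), Zfp579 (0.990), Birc2 (0.990), Dvl2 (0.987), Amz1 (0.987) and Lat (0.986). Their spans differed: Itgb5, an integrin beta chain, covered 2.39 on the log2 scale from highest to lowest group and Birc2 0.81, while H2-Aa covered 5.12. Among the other members r was 0.995 for H2-DMa, 0.992 for H2-DMb1, 0.931 for Ciita, 0.796 for Ctss and 0.790 for H2-Oa. These are descriptions over 8 means that share libraries, depth and scaling.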

How the data were processed

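The 16 libraries hold RNA of whole skin, prepared with a kit that keeps the strand, per the labels' protocols. The deposited values are a normalised signal per gene, made by the authors. The submitters' processing notes name Trim Galore 0.6.7, HISAT2 2.2.1, featureCounts 2.0.3 and DESeq2 2.11.40.8 with build mm10. Values were whole multiples of a step in every library (100% within 0.0001), so whole reads were recovered. The sources used here do not say whether the strand entered the counting. Columns were matched to titles by name.

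A gene was kept where 2 or more libraries reached a value of 10 (19189 of 32078 genes). All 8 groups entered 1 limma 3.58.1 model (R 4.3.3) of log2(value + 1), with a variance trend and 8 residual degrees of freedom. P-values were adjusted by Benjamini and Hochberg over all genes of a comparison. The fit was tested on simulated data. With 2 against 2 libraries an exact permutation test of 1 gene cannot go below 0.333. Counting intervals are exact binomial at 95% and cover counting error only. Exon lengths and positions came from GENCODE M21.

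The alternatives tried were a pseudocount of 4, all genes without the filter, TMM factors, only the libraries compared, a robust prior, the replicate block, a log2 change of at least 1, and leaving out each library. Added to these were edgeR 4.0.16 and DESeq2 1.42.0 on the recovered reads. Scaling to library totals and a fit without day 5 were added after seeing the data. All members were named, and of other lists the 4 genes with the highest mean, with defining cell markers. Members and lists were chosen with earlier results of these data known.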

Additional observations from a re-analysis of the deposited data

Results flagged for a closer look

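The change from day 0 differed between the arms, by limma's test of the difference itself, in 21 member tests. Every such value was negative, that is, the change was more negative with Topsym. By day these were 6, 7 and 8 of the 9 members, against 8.06%, 19.5% and 17.7% of all genes lower. The tests of the 3 days share the day 0 groups, so they are not separate results. At day 1 the differences of log2 changes were -0.59 for H2-Aa, -0.69 for H2-Ab1, -0.67 for H2-Eb1, -0.51 for Cd74, -0.77 for H2-DMb1 and -0.38 for Ctss. At day 3 they were -1.64 for H2-Aa, -1.84 for H2-Ab1, -1.86 for H2-Eb1, -1.68 for Cd74, -1.41 for H2-DMa, -1.28 for H2-DMb1 and -2.22 for Ctss. At day 5 they were -1.60 for H2-Aa, -1.63 for H2-Ab1, -1.75 for H2-Eb1, -1.61 for Cd74, -1.53 for H2-DMa, -1.17 for H2-DMb1, -1.90 for Ctss and -4.37 for Ciita, of which the Ciita value rests on 2 reads. Adjusted p-values ran from 8.32e-12 for H2-Eb1 at day 3 to 0.0230 for Ctss at day 1. The Ctss value at day 1 lost its call without any of the 4 libraries of day 1 in turn, without day 0 replicate 2 of SDS alone or without day 0 Topsym replicate 1, at adjusted p-values of 0.0543 to 0.0914. Groups of 2 allow no check for a library that stands apart within its group.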

How the results depend on the processing

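Of 153 tests of members, 122 were called, and no alternative reversed a direction among 4071 repeats; 3934 kept their side of the threshold, 73 fell outside it and 64 came inside. A reversal was counted only where a test was called. Many of these repeats could not reverse. The size limit, the robust prior and the replicate block keep the fitted differences, as does leaving out a library outside the comparison. Counts of members called moved by more than 1.5 times only in 6 comparisons. For day 1 of SDS alone the count of 4 became 2 with no filter and with TMM factors, 0 with a log2 change of at least 1, 7 with DESeq2 on recovered reads and 7 without the day 5 libraries. For Topsym against none at day 0 the count of 1 became 2 with a pseudocount of 4, a robust prior, edgeR, DESeq2 and the fit without the day 5 libraries, as Cd74 joined (adjusted p = 0.0136 to 0.0449), and 0 with a log2 change of at least 1. That size limit also left 3 of 8 at day 1 with Topsym, 5 of 8 from day 3 to day 5 with Topsym, 0 of 6 for Topsym against none at day 1 and 0 of 6 for the arms compared at day 1. Leaving out single libraries gave 1 to 6 called at day 1 of SDS alone, 1 to 2 for Topsym against none at day 0 (2 without either day 1 library of SDS alone, day 0 Topsym replicate 2 or either day 5 Topsym library), 6 to 9 at day 1 with Topsym, 4 to 8 for Topsym against none at day 1 and 8 to 9 at day 3 of SDS alone. A group left with 1 library was assumed to vary like the others.

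The replicate block changed no member call: 9 stayed called at day 3 of SDS alone and 4 at day 1. Samples with the same number showed no common deviation (r -0.19 to 0.22 over 28 pairs of groups, 2 of them over 0.1 and 5 under -0.1). That does not settle whether samples with the same number share an animal or a batch. Scaling to library totals put the median log2 difference of all genes at -0.66 for day 5 with Topsym (-0.078 as deposited) and changed no member call. Without the filter the median for day 5 against day 3 with Topsym went from -0.13 to 0. H2-Oa and the last Ciita group lie near the limit that a floor of 3 reads allows.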
